A study of Mus musculus with 19 samples.

Results

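The nuclear transcriptome of wild-type cortical astrocytes was described from the 4 wild-type libraries of a mouse series of 19 libraries. Of the 24537 genes listed in the deposited table, 15173 (61.8%) had a mean abundance of at least 1 TPM over these 4 libraries and were kept as its members. TPM is a unit of transcript abundance corrected for gene length and library size, so that levels of different genes can be set side by side. The threshold fell within a continuous range of values. Csf2rb2, a cytokine receptor subunit, was just inside it at a mean TPM of 1.0005, and the microRNA name Mir6406 was just outside at 0.99975.

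Nuclei had been released from fresh cortex and sorted by immunostaining as positive for SOX9, an astrocyte transcription factor, and negative for NEUN, the neuronal nuclear protein encoded by Rbfox3. All 4 animals were C57BL/6J males by genotype, Fmr1 +/y and Smad4 fl/fl without GFAP-cre, reared normally and taken on postnatal day 26 (replicate 1), 28 (replicate 2) and 27 (replicates 3 and 4). They are wild type for both genes studied in the series, but each carries loxP-flanked Smad4 alleles. The other libraries were 6 of Smad4 cKO, 5 of Fmr1 KO and 4 of the double mutant, and they enter below only where spread within a group is compared. Smad4 cKO animals were taken on postnatal days 26, 27 and 28. Fmr1 KO and double mutant animals were taken on days 26 and 27. Nothing in the labels says whether the replicates came from separate litters. Wild-type replicates 1 and 2 are each alone on their day, so the day and the animal cannot be told apart there.

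Astrocytes are glial cells that clear glutamate and potassium around synapses, supply neurons with metabolites and lipoproteins, are coupled by gap junctions and line blood vessels. Nuclear RNA holds newly made and unspliced transcripts along with RNAs that stay in the nucleus, such as the ribosomal RNA precursor and Malat1. The level of a messenger RNA in a nucleus therefore need not follow its level in the cytoplasm. In such bulk libraries, fewer cells of a type and less RNA per cell cannot be told apart.

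The listed values of a library summed to between 688627 and 716222 TPM. The number of genes with a value above 0 ranged from 17988 to 18692. Read depth is unknown, since TPM keeps no read counts, and no counting interval is given. A factor for each library, between 0.959 and 1.033, was used to put the libraries on the same scale where spread is described, and those values are called scaled TPM. Y-linked Eif2s3y stood at 100.4 ± 7.82 TPM (SD, n = 4) and Xist, the RNA of the inactive X, at 0.128 to 0.323 scaled TPM. Fmr1 (chromosome X) had 30.5, 23.2, 26.2 and 20.9 scaled TPM in replicates 1 to 4, and Smad4 (chromosome 18) had 32.1, 35.2, 29.0 and 32.1. Both targeted genes were thus read in all 4 libraries, above the median level of members.

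Abundance was very uneven. A total of 13 members at 1000 TPM or more held 42.1% of the listed TPM. A further 510 members between 100 and 1000 TPM held 15.6%, 9362 between 10 and 100 TPM held 38.7%, and 5288 between 1 and 10 TPM held 3.51%. The median member stood at 15.7 TPM, with quartiles of 6.48 and 30.1. Of the members, 13482 were annotated as protein-coding and held 53.2% of the listed TPM. Another 1451 were annotated as non-coding RNA, Malat1 and the microRNA names included, and held 16.4%. Of the genes left out, 4669 were at 0 in all 4 libraries and 4695 were above 0 with a mean under 1 TPM.

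**Figure D1:**
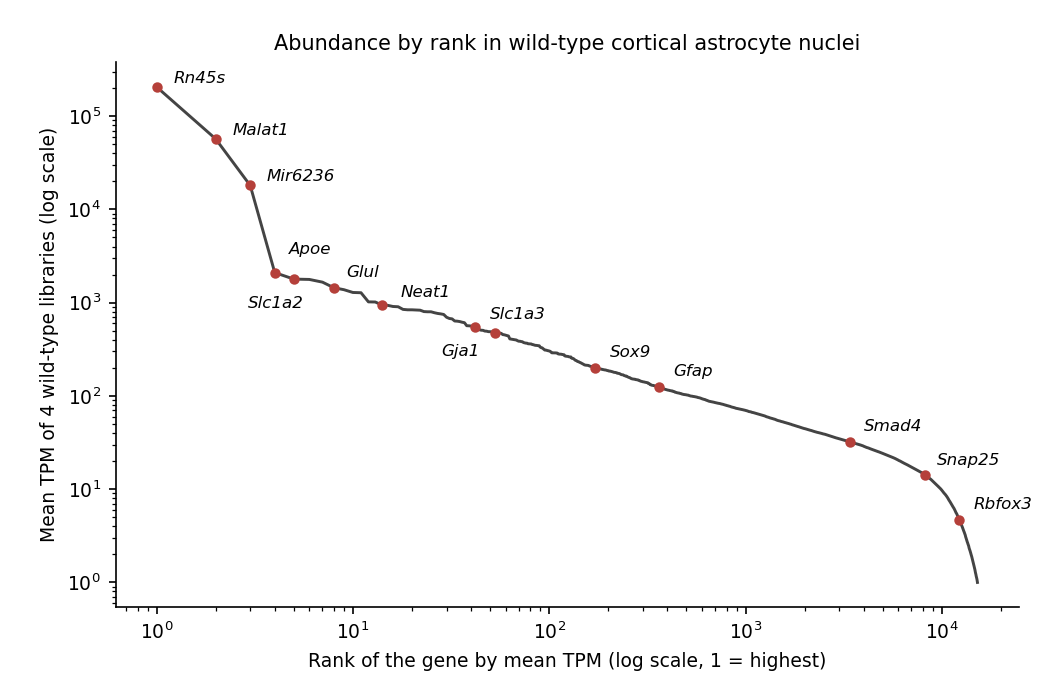
Mean TPM over the 4 wild-type libraries (log scale) of the 15173 members against their rank (log scale), with some named genes marked. The curve drops from 206036 TPM for Rn45s to 2101 TPM for Apoe within the first 4 ranks and then declines slowly to 69.9 TPM at rank 1000.

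The 2 highest genes in every library make RNAs that are processed or kept in the nucleus. Rn45s, the precursor of the large ribosomal RNAs, had 142773, 198767, 227262 and 255340 TPM in replicates 1, 2, 3 and 4, or 20.7%, 28.5%, 31.9% and 35.7% of the listed TPM. It ranked highest in every library although the libraries had been made with a kit that removes ribosomal RNA. Malat1 (chromosome 19, 5795690 to 5802672, minus strand, build GRCm38), a long non-coding RNA of nuclear speckles, ranked next in every library, with 64285, 55015, 51343 and 57541 TPM. Its spread was narrow, with the highest library 1.21-fold above the lowest. Neat1, the scaffold RNA of paraspeckles, was far lower than Malat1, at 947 ± 126 TPM (rank 14).

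Genes of known astrocyte function were prominent in the next ranks. Apoe, the apolipoprotein that astrocytes secrete, ranked highest among protein-coding genes by its mean of 2101 TPM, but its libraries ranged from 3554 TPM in replicate 1 to 627 TPM in replicate 4. Slc1a2 (chromosome 2, 102658659 to 102790784, plus strand), the main glutamate transporter of the forebrain, followed with 1691, 1987, 1548 and 1935 TPM. It was the highest-ranking protein-coding gene in replicate 4 and ranked between 4 and 10 in all libraries. Next came Bcan, which encodes the proteoglycan brevican, at 1660 ± 291 TPM, and Glul, glutamine synthetase, at 1446 ± 264 TPM. Atp1b2, a subunit gene of the sodium pump, was close behind at 1017 ± 444 TPM. With overlapping libraries, neighbours in this order cannot be ranked beyond their spread.

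Further named genes in the top ranks were mostly known astrocyte genes. They included Ntsr2, a neurotensin receptor, at 937 ± 173 TPM, Aldoc, the brain aldolase, at 910.1 ± 307 TPM, Ndrg2 at 904 ± 193 TPM and Ttyh1 at 838 ± 220.2 TPM. Ckb, brain creatine kinase, stood at 830.4 ± 249 TPM, Grin2c, an NMDA receptor subunit, at 767 ± 101 TPM, Cst3, cystatin C, at 758 ± 378 TPM and Fgfr3, an FGF receptor, at 698 ± 170.0 TPM. RNA-processing genes stood beside them, with Rsrp1 at 1286 ± 199 TPM, the helicase gene Ddx17 at 1020 ± 111 TPM and Leng8 at 834 ± 119.6 TPM. Dclk1, a microtubule-associated kinase gene, had 803 ± 113 TPM. The 100 highest genes of a library held between 44.5% and 52.6% of its listed TPM. Of the 100 highest by mean, 68 were among the 100 highest of every library, and of the 1000 highest by mean, 709 were among the 1000 highest of every library.

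A set of microRNA names also reached the top ranks. Their hairpins are short and most lie inside a longer gene, so their TPM may hold reads of that gene's transcript. Of 706 microRNA names among the members, 622 matched a RefSeq entry and 520 of those lay within an annotated gene on the same strand, 178 in an exon and 342 in an intron only. The mature sequences of the names that the levels below turn on are shown 5′ to 3′ with the seed, bases 2 to 8, in capitals. They are RefSeq sequences on GRCm38.p6, at chr9:110281353-110281371 (plus strand) for miR-6236, chr19:44303171-44303192 (plus) for miR-5114, chr3:88215613-88215635 and chr3:88215652-88215673 (plus) for miR-9-5p and miR-9-3p, chr3:88215186-88215207 (plus) for miR-3093-5p, chr12:109544588-109544609 (plus) for miR-1906 and chr12:109563710-109563731 (plus) for miR-770-5p.
mmu-miR-6236: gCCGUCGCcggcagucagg
mmu-miR-5114: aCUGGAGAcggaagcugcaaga
mmu-miR-9-5p: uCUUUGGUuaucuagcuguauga
mmu-miR-9-3p: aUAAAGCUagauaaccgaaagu
mmu-miR-3093-5p: cGCACCCCgcggagcucacacu
mmu-miR-1906: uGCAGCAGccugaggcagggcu
mmu-miR-770-5p: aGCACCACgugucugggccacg

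Mir6236 was the third highest name of all, with 27372, 14078, 19047 and 11737 TPM. No annotated gene on the same strand contains it. Mir5114 lies in an exon of Scd2, a stearoyl-CoA desaturase gene, and had 1959, 1290, 1380 and 819.7 scaled TPM. Scd2 itself had 789, 436, 600.0 and 422 scaled TPM, so replicates stood in the same order for the name and for its host gene. Mir9-1, a gene for the neural microRNA miR-9, had 1031, 1070, 707 and 503 scaled TPM. Mir3093, which lies beside it in an intron of the same non-coding gene, had 771, 937, 896 and 765 scaled TPM. Mir9-2 and Mir9-3, which share both mature sequences and seeds with Mir9-1 but lie on chromosomes 13 and 7, had means of 24.3 and 23.2 TPM. The mature miR-9 is the product of all 3 genes, and these values are of the primary loci, not of the mature RNA. Mir3064 lies in an exon of the helicase gene Ddx5 and had 517, 498, 435 and 494 scaled TPM, beside 746, 592, 604 and 574 for Ddx5. Of 111 microRNA names at 10 TPM or more in an exon of a member gene, 46 were highest in the same library as that gene. Of 177 in an intron, 63 were. The share that would match by chance was not computed. Among the 1299 members at 10 TPM or more that ranged over 2-fold, replicates 1 to 4 were highest in 35.2%, 16.9%, 25.8% and 22.1%. Whether the names follow their host genes was not tested.

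The cell type was read from marker lists. All 26 astrocyte markers were members, with a median of 322 TPM, and 22 of them were at 100 TPM or more. The median astrocyte marker lay at the 99.4th percentile of member abundance. Slc1a3, the second forebrain glutamate transporter, had 607, 634, 486 and 466 TPM, and Gja1, the gap junction protein connexin 43, had 781, 429, 469 and 222 TPM. Sox9 (chromosome 11, 112782224 to 112787760, plus strand), the gene of the sorting marker, had 307, 176, 229 and 91.4 TPM. Slc1a2 and Slc1a3 were thus within a narrow range, while Gja1 and Sox9 were highest in replicate 1 and lowest in replicate 4, at 3.27-fold and 3.12-fold in scaled TPM. Gfap, an intermediate filament gene, stood at 126 ± 11.3 TPM, Aqp4, the water channel, at 281 ± 83.7 TPM and Aldh1l1, a folate enzyme, at 151 ± 26.1 TPM. Kcnj10, the inward-rectifier potassium channel Kir4.1, stood at 75.4 ± 17.0 TPM and S100b, a calcium-binding protein, was the lowest of the 26 at 37.7 ± 12.2 TPM.

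Markers of other cell types were present at lower levels and most lists differed between libraries by more than the astrocyte markers did, with progenitor markers (1.21-fold) and cell cycle genes (1.504-fold) as exceptions. The summed level of the 26 astrocyte markers was 17374, 13148, 12772 and 10855 scaled TPM, a range of 1.60-fold. For 15 oligodendrocyte markers the sums were 978, 312, 1101 and 1553 scaled TPM, lowest in replicate 2 and highest in replicate 4. For 16 microglia markers they were 472, 406, 336 and 100.04, with replicate 4 below the others. For 15 endothelial markers they were 552, 746, 157 and 326, with replicate 2 highest and replicate 3 lowest for all 15 genes. For 20 neuron markers they were 128, 104, 322 and 210.0, with replicate 3 highest for 18 genes and replicate 4 for the other 2. These sums ranged 4.99-fold, 4.72-fold, 4.76-fold and 3.11-fold between libraries.

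For 16 mural and fibroblast markers they were 247, 272, 137 and 155 scaled TPM, and 12 of the 16 were members. Pdgfrb, a growth factor receptor of pericytes, held 76.5, 88.8, 70.9 and 62.6 of these, while Dcn and Lum, fibroblast matrix genes, stayed under a mean of 1 TPM. For 8 oligodendrocyte precursor markers the sums were 187, 48.5, 164 and 101, and Gpr17, a receptor of newly forming oligodendrocytes, had 119.7, 11.9, 116 and 51.6 scaled TPM. Pdgfra, the defining receptor of precursors, had 8.96, 4.53, 2.22 and 2.28. For 11 ependymal and choroid plexus markers the sums were 41.4, 35.7, 53.3 and 98.03, with Ttr, the choroid plexus gene, at a mean of 0.054 TPM. For 10 markers of progenitors and immature neurons they were 154, 133, 162 and 145, led by Egfr at 59.6 ± 3.41 TPM, a growth factor receptor that glia also use, and Eomes, the defining gene of intermediate progenitors, was at 0 in replicates 1, 3 and 4. Of 21 cell cycle genes, 12 were members, and Mki67, which marks dividing cells, had 1.72, 0.737, 0.576 and 0.277 scaled TPM.

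**Figure D2:**
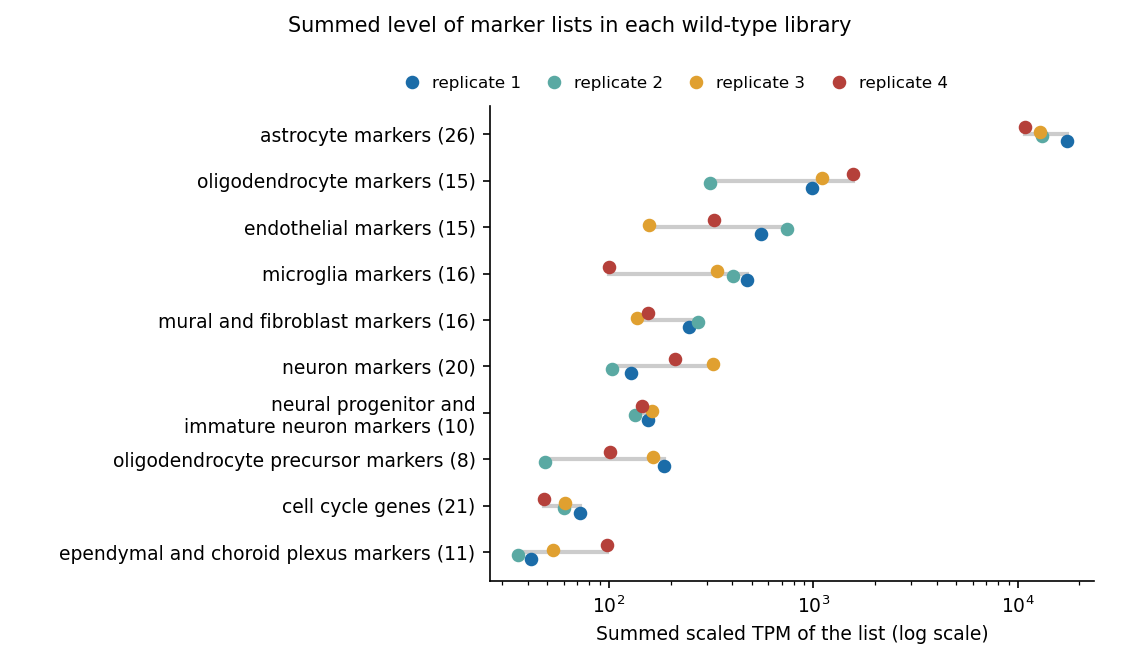
Summed scaled TPM (log scale) of 10 marker lists in each wild-type library, with the number of genes in each list in parentheses, points coloured by replicate and grey bars from the lowest to the highest library. Astrocyte markers sit between 10855 and 17374, and each other list reaches at most 1553.

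Neuronal genes were low but not absent. Rbfox3, whose protein was sorted against, had 1.14, 2.18, 8.76 and 7.05 scaled TPM. Replicates 3 and 4 were above replicates 1 and 2 without overlap. Snap25, a synaptic vesicle fusion gene, had 7.16, 6.81, 26.4 and 16.7 scaled TPM. Slc17a7, the vesicular glutamate transporter of cortical excitatory neurons, had 21.0, 17.5, 44.6 and 25.9, and Sst, the somatostatin gene of a class of interneurons, had 10.04, 5.003, 41.3 and 22.4. The median neuron marker stood at 6.42 TPM. Whether the sorted nuclei of replicates 3 and 4 held more neurons was not tested.

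All 24 genes of glutamate uptake, metabolism and sensing were members and 9 were at 100 TPM or more. Glud1, glutamate dehydrogenase, stood at 244 ± 39.5 TPM, Slc38a3, a glutamine exporter, at 334 ± 44.7 TPM and Slc25a18, a mitochondrial glutamate carrier, at 151 ± 10.7 TPM. Among receptor genes, Grin2c exceeded the other NMDA receptor genes of the list, with Grin1 at 28.4 ± 18.1 TPM and Grin2b at 12.2 ± 5.81 TPM. Grin1 had 14.8, 14.03, 53.4 and 32.0 scaled TPM, higher in replicates 3 and 4, as were the neuron markers, while Grin2c had 837, 813, 654 and 745, lower in replicates 3 and 4. Grm3, a metabotropic receptor typical of mature astrocytes, stood at 174 ± 23.8 TPM and Grm5, the receptor typical of young astrocytes and of neurons, at 7.11 ± 3.30 TPM. Summed over the list, the 4 libraries had 6246, 6045, 5576 and 5912 scaled TPM, a range of 1.12-fold.

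GABA handling was also expressed. Slc6a11, which encodes the GABA transporter GAT-3, stood at 94.9 ± 6.90 TPM. Gabbr1, a subunit of the metabotropic GABA receptor, had 280.2 ± 22.0 TPM and its partner Gabbr2 had 35.2 ± 13.5 TPM. Gldc, the glycine-cleaving decarboxylase, stood at 74.8 ± 11.2 TPM. Of the 15 genes, Best1, a chloride channel gene, and Glra1, a glycine receptor gene, were not members, with means of 0.108 and 0.018 TPM.

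Ion and water homeostasis genes were all members (23 of 23), with a median of 75.4 TPM. Gjb6, the gap junction protein connexin 30, stood at 453 ± 127 TPM, close to Gja1 at 475 ± 231 TPM, and Gjb2, connexin 26, was far lower at 11.7 ± 4.97 TPM. Slc4a4, a sodium bicarbonate cotransporter, had 129 ± 9.05 TPM and Mlc1 and Hepacam, which form a membrane complex at astrocyte endfeet, had 127 ± 14.8 and 269 ± 45.3 TPM.

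The receptor repertoire was dominated by a few genes. Of 27 astrocyte G protein-coupled receptor genes, 25 were members and 6 were at 100 TPM or more. S1pr1, a sphingosine phosphate receptor, had 1023, 490.0, 687 and 277 scaled TPM, and Gpr37l1, an orphan receptor of astrocytes, had 691, 315, 435 and 139. Both were highest in replicate 1 and lowest in replicate 4. Adrenergic receptors were lower, with Adrb1 at 52.3 ± 21.6 TPM, Adra2a at 30.8 ± 11.8 TPM and Adra1a at 22.6 ± 3.91 TPM. P2ry1, a purinergic receptor, stood at 3.98 ± 1.86 TPM, and Oxtr, the oxytocin receptor, and Htr2b, a serotonin receptor, were under a mean of 1 TPM.

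Adhesion and matrix genes were broadly expressed. All 28 adhesion genes were members, with a median of 67.3 TPM. Cadm1 and Lsamp, immunoglobulin-type adhesion genes, stood at 217 ± 22.3 and 214 ± 24.8 TPM. Of 28 matrix genes, 27 were members. After Bcan came Cspg5, the proteoglycan neuroglycan C, at 405 ± 64.4 TPM, Ncan, neurocan, at 190.2 ± 49.2 TPM and Sdc4, a syndecan, at 184 ± 49.1 TPM. Acan, the aggrecan gene of perineuronal nets, was at a mean of 0.281 TPM.

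All 22 secreted regulators of synapses were members, with a wide range. Sparcl1, the synaptogenic protein hevin, stood at 475 ± 105 TPM, its antagonist Sparc at 39.8 ± 15.5 TPM and Cpe, carboxypeptidase E, at 347 ± 78.7 TPM. Gpc5, a glypican, had 118 ± 12.8 TPM, above Gpc6 at 25.4 ± 2.77 TPM and Gpc4 at 6.70 ± 0.550 TPM, with no overlap between them. Chrdl1, a BMP antagonist that matures glutamate receptors at synapses, stood at 16.6 ± 2.39 TPM. Thrombospondin genes were low, with Thbs1 at 1.24 ± 0.603 TPM and Thbs2 at 1.06 ± 0.220 TPM. Thbs4 had 14.7, 31.7, 2.26 and 16.3 scaled TPM, lowest in replicate 3. Among 15 phagocytosis and clearance genes, all members, Mertk, an engulfment receptor, led at 362 ± 88.8 TPM, above its relative Axl at 55.7 ± 7.399 TPM and Megf10 at 43.1 ± 4.18 TPM.

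In the BMP and TGF-beta pathway, which Smad4 serves, 34 of 36 genes were members, with a median of 15.01 TPM, near the median of 15.7 TPM of all members. Among ligands, Bmp7 stood at 17.6 ± 2.52 TPM, Tgfb2 at 18.4 ± 2.84 TPM, Bmp4 at 8.09 ± 3.23 TPM and Bmp6 at 2.90 ± 1.35 TPM. Gdf1 was listed at 149.8 ± 46.6 TPM, but in mouse it shares a transcript with Cers1, and how such reads were divided was not stated. Among receptors, Bmpr1b led at 92.6 ± 12.6 TPM, above Bmpr1a at 41.7 ± 2.73 TPM and Bmpr2 at 31.2 ± 4.58 TPM. Of the SMAD genes, Smad4 and Smad5 were equal, at 32.3 ± 3.23 and 32.3 ± 1.52 TPM, with Smad1 at 22.3 ± 3.17 TPM, Smad2 at 22.9 ± 1.31 TPM and Smad9 at 8.74 ± 1.35 TPM. Id genes, known targets of BMP signalling, were also members, with Id3 at 381 ± 110.3 TPM, Id4 at 368 ± 96.7 TPM, Id2 at 314 ± 103 TPM and Id1 at 99.7 ± 39.3 TPM.

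Of 37 genes for receptors of other growth and patterning signals, 36 were members. Notch1 stood at 140.3 ± 30.8 TPM, Ptch1, the Hedgehog receptor, at 98.6 ± 6.73 TPM, Ntrk2, the receptor gene of BDNF, at 206 ± 44.4 TPM and Fgfr1 at 115 ± 7.59 TPM. Fgfr4 was at a mean of 0.151 TPM. All 10 Frizzled genes, the Wnt receptors, were members, from Fzd5 at 11.4 ± 6.36 TPM to Fzd2 at 156 ± 90.1 TPM. Fzd2 had 272, 133, 141 and 68.0 scaled TPM, again highest in replicate 1 and lowest in replicate 4.

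All 39 transcription factor genes on the astrocyte list were members, with a median of 73.8 TPM, and 12 of them ranged more than 2-fold. Hes5, a Notch target, was the highest and had 724, 343, 511 and 171 scaled TPM. Sox2, a factor of neural progenitors and glia, had 298, 153, 291 and 107. Nfia, which drives gliogenesis, stood at 129.8 ± 16.4 TPM and Klf15, a glucocorticoid-responsive factor, at 215 ± 49.6 TPM. Rorb, a retinoid-related orphan receptor, had 127 ± 18.9 TPM. Lhx2 and Gli3, patterning factors of the cortex, were steady, with 78.6, 87.6, 82.3 and 84.7 scaled TPM for Lhx2 and 71.0, 78.0, 72.0 and 72.9 for Gli3. Irx2 and Irx5, factors of hindbrain and diencephalon astrocytes, were at means of 0.0545 and 0.581 TPM.

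Metabolic genes were present throughout. All 26 genes of glycolysis, glycogen and lactate were members, with a median of 53.1 TPM, and after Aldoc came Aldoa at 165 ± 34.0 TPM, Pfkm, a phosphofructokinase, at 117 ± 20.5 TPM and Pygb, brain glycogen phosphorylase, at 116 ± 6.65 TPM. Pygb had 116, 117, 117 and 111 scaled TPM and Pygm, the muscle isoform, 73.2, 47.2, 31.6 and 41.4. All 28 cholesterol genes were members, with a median of 45.9 TPM. Msmo1, a sterol methyl oxidase, stood at 204 ± 10.8 TPM, Insig1, a sterol sensor, at 185 ± 33.5 TPM and Hmgcs1, a synthase of the pathway, at 108 ± 22.3 TPM. Of these 28 genes, replicate 2 was lowest for 15 and replicate 4 was highest for 14. Their summed level, which Apoe leads, was 5270, 3333, 4196 and 2425 scaled TPM, highest in replicate 1 and lowest in replicate 4. All 20 fatty acid genes were members, with Acsl3, an acyl-CoA synthetase, at 468 ± 116 TPM, a value that may include reads of the overlapping Utp14b, Fads1, a desaturase, at 180.2 ± 33.0 TPM and Fasn, fatty acid synthase, at 177 ± 35.5 TPM. All 43 nuclear-encoded oxidative phosphorylation genes were members, from 3.27 TPM for Ndufa1 to 115 TPM for Atp5b, and 31 of them were highest in replicate 1. That share was not counted over all members. It was 35.2% among the 1299 members at 10 TPM or more that ranged over 2-fold. Only 1 of the 43 genes ranged that far, so that share is no background for them. Short genes as a class were also higher in replicate 1 than in replicate 4, as described below, and the part of gene length here was not tested. None of the 13 mitochondrially encoded genes was found by name among the listed genes, so they were not analysed here.

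Of 31 reactive astrocyte genes, 21 were members, with a median of 2.74 TPM over the list. Gfap was the highest, C4b, a complement gene, stood at 45.1 ± 14.2 TPM, Stat3 at 29.7 ± 2.84 TPM and Vim, vimentin, at 22.2 ± 5.76 TPM. Lcn2, C3 and Cxcl10, which mark strong reactivity, were at means of 0.105, 0.140 and 0.468 TPM. Of 26 immediate early and dissociation genes, 24 were members, with a median of 15.2 TPM over the list, and 21 ranged more than 2-fold. Arc, an activity-induced synaptic gene, had 10.6, 4.53, 66.7 and 32.8 scaled TPM. Npas4, an activity-induced factor of neurons, had 2.26, 1.35, 24.7 and 3.94, and Nr4a1 had 11.4, 8.99, 59.2 and 20.03. Replicate 3 was the highest library for 13 of the 24 members, and it was also the library of highest neuron marker sum. Their part in each other was not tested.

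Circadian clock genes were well expressed (20 of 20 members, median 80.7 TPM). Rora stood at 225 ± 85.96 TPM, Dbp, a clock output factor, at 214 ± 83.6 TPM, Tef at 212 ± 36.3 TPM, Nr1d1, the repressor REV-ERB alpha, at 207 ± 65.5 TPM and Per1 at 149 ± 21.7 TPM. Arntl, a clock activator, had 24.5, 33.9, 33.4 and 34.7 scaled TPM and was lowest in replicate 1. Nr1d1 had 276, 219, 189 and 134 and was highest there. The labels give no hour at which the animals were taken.

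Most members varied little between libraries. The median SD of log2(scaled TPM + 1) was 0.23, with quartiles of 0.13 and 0.43, and the median coefficient of variation was 17.1%. A total of 3602 members (23.7%) ranged more than 2-fold and 1030 more than 4-fold. These ranges are taken on the same log2(scaled TPM + 1) scale. Spread depended on abundance. With members split by level into 10 classes of equal size, the median SD was 0.47 in the lowest class, 0.16 in class 7 (20.2 to 26.0 TPM) and 0.20 in the highest class (53.3 TPM and above). Names of small and structural RNAs had a median SD of 1.39, against 0.21 in the other members. Of the 580 members at 0 in at least 1 library, 453 were such names. Among the 9885 members at 10 TPM or more, 1299 (13.1%) ranged more than 2-fold.

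**Figure D3:**
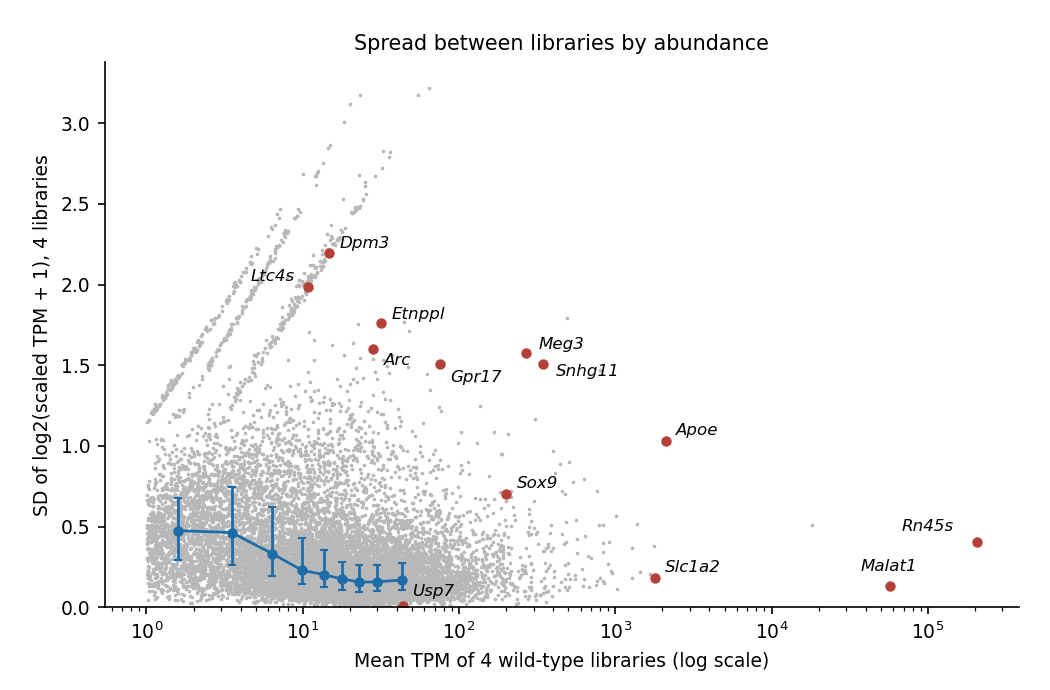
SD of log2(scaled TPM + 1) over the 4 wild-type libraries against mean TPM (log scale), 1 point per member. The blue points and bars are the median and quartiles of the 9 lower of 10 equal abundance classes, placed at the geometric midpoint of each, and run from 0.47 in the lowest class to 0.16 in class 7. Genes above the cloud include Meg3, Snhg11 and Etnppl, and the slanted streaks at the upper left are members at 0 in some libraries.

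The steadiest genes at 10 TPM or more were of middle abundance. Usp7, a deubiquitinase gene, had 43.7, 44.1, 44.0 and 43.8 scaled TPM, and Exoc5, a subunit of the exocyst complex, had 33.5, 33.6, 33.9 and 33.9. L3mbtl2, a chromatin reader, had 11.9, 11.8, 11.8 and 11.7. Smc3, a cohesin subunit, Ppm1d, a phosphatase, Metap1, a methionine aminopeptidase, Ss18, a chromatin remodelling subunit, and Slc30a7, a zinc transporter, were also among the 15 genes of lowest SD. Each of the 15 had an SD of 0.014 or less on the log2 scale. That limit depended on the scaling and the libraries: the highest SD among the 15 was 0.022 without replicate 4, 0.041 under quantile normalization and 0.061 for TPM as deposited. They were chosen for that value, and within Smad4 cKO, Fmr1 KO and the double mutant their median SD was 0.08, 0.11 and 0.08, beside 0.16, 0.16 and 0.14 for all 9885 genes. The wild-type median over the same 9885 genes was 0.18.

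The genes of highest spread fell into several sets that shared a pattern over the libraries. Among the 15 genes of highest SD at 10 TPM or more, Tmem119 and Siglech are genes of microglia. Tmem119 had 30.9, 21.8, 17.8 and 1.86 scaled TPM and Siglech had 43.8, 38.2, 29.9 and 4.46. Replicate 4 was lowest for all 16 microglia markers, and Cx3cr1, the fractalkine receptor, was 8.21-fold lower there than in replicate 1. Dpm3 and Ltc4s, short genes for enzyme subunits, were listed at 0 in replicate 4 and had 29.996, 18.4 and 9.29 and 18.8, 15.7 and 7.86 scaled TPM in the others.

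Oligodendrocyte genes were lowest in replicate 2. Mbp, myelin basic protein, had 173, 63.5, 216 and 384 scaled TPM. Replicate 2 was lowest for 14 of the 15 oligodendrocyte markers and replicate 4 was highest for 11. Olig2, a factor of that lineage that some astrocytes also express, had 81.1, 22.5, 66.1 and 39.5. Endothelial genes had another order, and Cldn5, the tight junction protein of brain vessels, had 263, 295, 75.1 and 112 scaled TPM.

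A further set was high in replicates 3 and 4 and low in replicates 1 and 2. Meg3 (chromosome 12, 109541001 to 109571726, plus strand), an imprinted long non-coding RNA, had 57.9, 89.1, 468 and 471 scaled TPM, and its rank was 1437 in replicate 1 and 52 in replicate 4. Rian and Mirg, non-coding RNAs of the same imprinted locus, had 12.7, 17.5, 73.1 and 61.9 and 5.66, 7.51, 28.8 and 24.5. A total of 56 microRNA names lay between the start of Meg3 and the end of Mirg, and 35 of them were higher in both of replicates 3 and 4 than in both of replicates 1 and 2. Their summed level was 412, 765, 3615 and 3330 scaled TPM. The share of all members that were higher in both of replicates 3 and 4 was not counted. These names were looked at after values were seen, so the 35 of 56 is a description only.

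Mir770, in an exon of Meg3, had 68.2, 183, 921 and 813 scaled TPM, 13.5-fold from lowest to highest, beside 8.13-fold for Meg3. The name Mir1906-1, also in an exon of Meg3, had 185, 320.0, 1411 and 1323. Mir1906-2 on chromosome X carries the same mature sequence and had the same 4 values, so the locus of those reads is uncertain. Snhg11, a host gene of small nucleolar RNAs, had 87.4, 110.2, 726 and 473, and Mir124a-1hg, the host gene of the neuronal microRNA miR-124, had 22.4, 20.4, 144 and 75.1. Kcnc2, a potassium channel gene of fast-spiking interneurons, had 2.11, 3.15, 20.3 and 22.3. The neuron marker sum was also higher in replicates 3 and 4, at 322 and 210.0 against 128 and 104, and its part in these values was not tested.

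A last set was low in replicate 3 alone. Etnppl, an astrocyte phospholyase, had 54.7, 29.7, 2.74 and 38.9 scaled TPM, 19.99-fold from lowest to highest. Sult1a1, a sulfotransferase gene, had 82.7, 58.9, 7.14 and 37.2. Fkbp5, a glucocorticoid-induced chaperone gene, had 17.8, 13.9, 1.66 and 12.1, and Plin4, a lipid droplet gene, had 17.5, 19.2, 1.71 and 11.1. Without replicate 3 the SD of Etnppl was 0.43 in place of 1.76, that of Sult1a1 0.57 in place of 1.49 and that of Thbs4 0.57 in place of 1.41. These genes were grouped by their low level in replicate 3, so a lower SD without it follows from the choice. The endothelial marker sum was lowest in replicate 3 as well, at 157 scaled TPM, and its part was not tested.

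**Figure D4:**
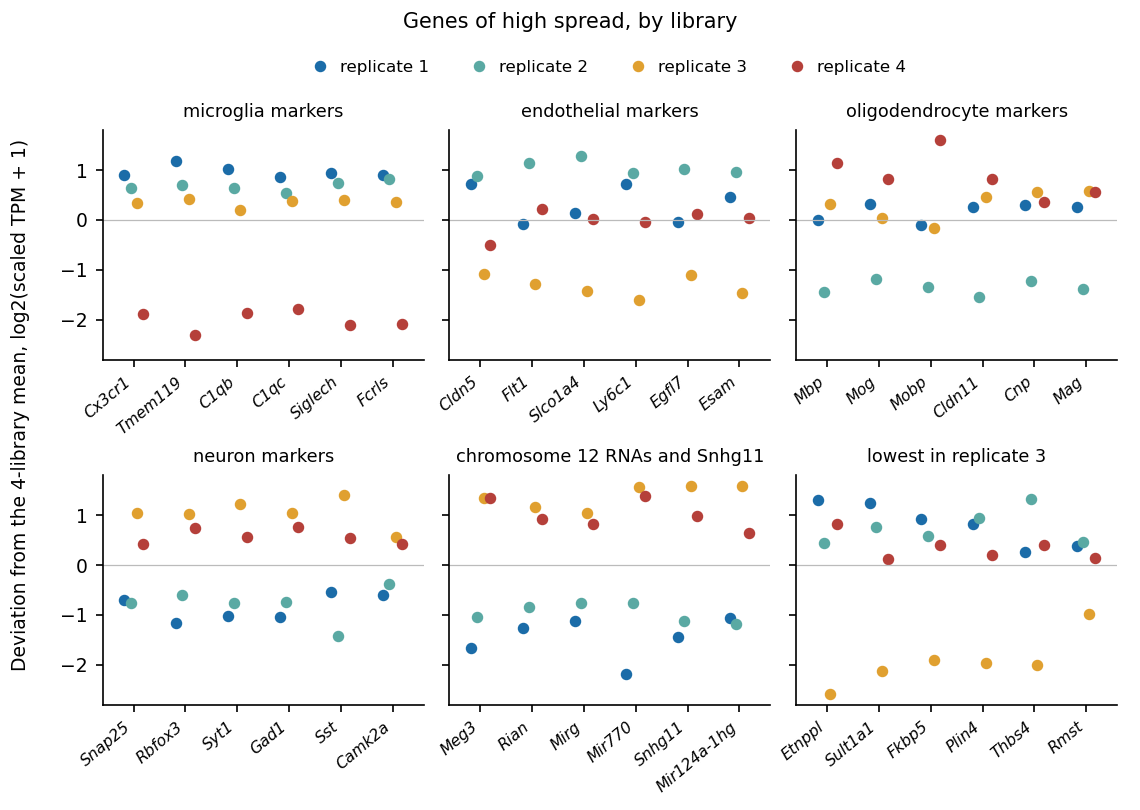
Deviation of log2(scaled TPM + 1) from the mean of the 4 wild-type libraries for 6 genes in each of 6 sets, with points coloured by replicate. Within each set the same library stands lowest or the same pair stands highest, such as replicate 4 for microglia markers and replicates 3 and 4 for Meg3, Rian and Mirg. Some genes shown were picked after values were seen. The set lowest in replicate 3 was formed by that order, so there the shared order follows from the choice.

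The largest difference between any pair of libraries was between replicates 1 and 4. Pearson correlation across the 15173 members, which is a description and not a test, ran from 0.879 for replicates 1 and 4 to 0.935 for replicates 1 and 2, and was 0.898 for replicates 3 and 4, which share a postnatal day. Of the 1299 genes at 10 TPM or more that ranged over 2-fold, 337 (25.9%) were highest in replicate 1 and lowest in replicate 4, more than in any other of the 12 possible orders of extremes. Among them were Apoe, with 3446, 1790, 2387 and 653 scaled TPM, Actb, beta-actin, with 852, 533, 490.3 and 231, and Fjx1, a secreted kinase-like protein, with 870.5, 410.4, 523 and 193. Replicates 1 and 4 lay at opposite ends of the leading principal component of the 9885 genes, which held 48.2% of the variance.

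This difference ran with gene length. Annotated length (GENCODE on GRCm38, matched by symbol for 13932 of 14327 members that are not small RNA names) was compared with the log2 level in replicate 1 minus that in replicate 4. Genes under 5 kb were higher in replicate 1 by a median of 0.43, with 74.4% of 1742 genes higher there. Genes over 200 kb were lower in replicate 1, with a median of -0.50 and 10.7% of 862 genes higher there. In between, the medians were 0.18, -0.02, -0.16 and -0.30 in classes of rising length. Over all 13932 matched genes the median was 0.002, and 50.2% were higher in replicate 1. Spearman's rho of length with this difference was -0.467 across genes, which are not independent replicates. The exonic percent of the annotated length followed the difference about as closely, with a rho of 0.458. The 572 genes of 1 exon block were higher in replicate 1 by a median of 0.47, with 68.4% of them higher there. Length and exonic percent were not separated.

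Hes5, Fjx1 and Apoe are among the short genes. Long genes went the other way, as with Npas3, a neural transcription factor of 823499 bases, which had 71.2, 82.1, 92.2 and 111 scaled TPM. Gli2, a Hedgehog effector, had 50.9, 84.8, 62.7 and 107, and Nfix, an NFI factor, had 37.6, 56.6, 47.5 and 72.8. The pattern was also seen among genes at 100 TPM or more, where 59 of 68 genes under 5 kb and 7 of 30 genes over 200 kb were higher in replicate 1. In the classes between, by rising length, 149 of 186, 59 of 93, 22 of 46 and 10 of 41 were higher there. In replicates 2 and 3 the median deviation of a length class over all genes was between -0.03 and 0.04. Among genes at 100 TPM or more it was wider. There it went from -0.09 under 5 kb to 0.15 over 200 kb in replicate 2, and from 0.03 to -0.14 in replicate 3. The share of Rn45s was 20.7% in replicate 1 and 35.7% in replicate 4, the lowest and the highest of the 4 libraries, and its part in the pattern was not tested.

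**Figure D5:**
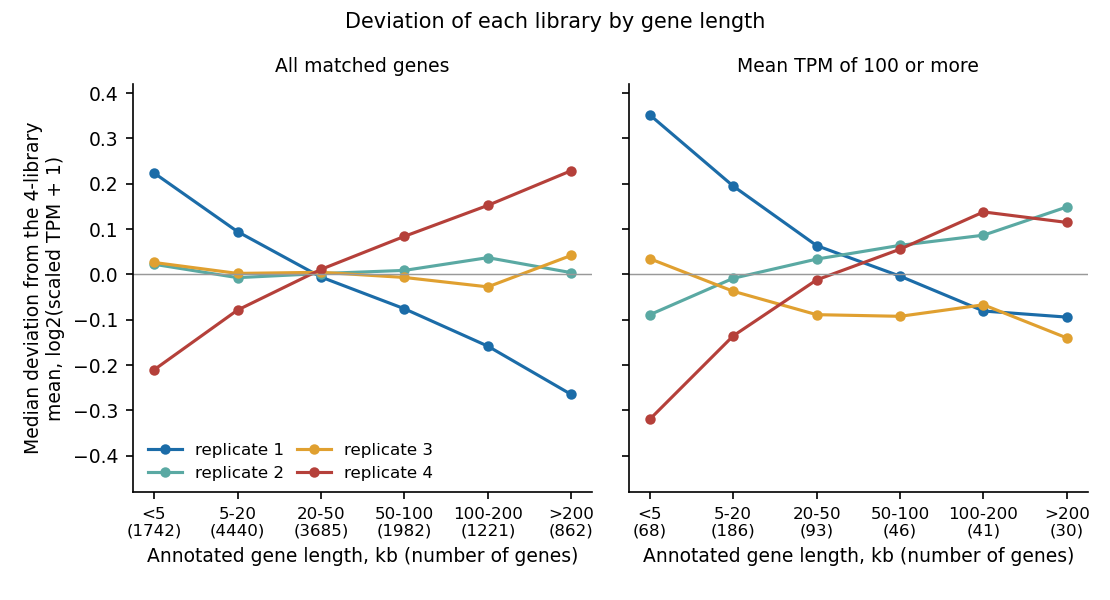
Median deviation of each wild-type library from the 4-library mean of log2(scaled TPM + 1) by annotated gene length, for all matched genes (left) and for those at a mean of 100 TPM or more (right), with the number of genes in each class in parentheses. Replicate 1 runs from 0.22 in the shortest class to -0.26 in the longest over all genes, and replicate 4 from -0.21 to 0.23.

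The same kind of dependence on length was present in single libraries of the other genotypes, to a smaller degree. Spearman's rho of length with a library's deviation from its own group mean, over the same 13932 genes, ran from -0.461 in replicate 1 to 0.416 in replicate 4 of the wild type. It ran from -0.250 to 0.343 over 6 Smad4 cKO libraries, from -0.145 to 0.261 over 5 Fmr1 KO libraries and from -0.194 to 0.262 over 4 double mutant libraries. Rn45s held 21.3% to 35.1%, 17.2% to 22.8% and 15.6% to 23.1% of the listed TPM in those groups.

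Genes that varied among wild-type libraries also varied within the other genotypes, which the choice of members did not use. Across the 9885 genes, Spearman's rho of the SD with that in the wild type was 0.733 in Smad4 cKO, 0.626 in Fmr1 KO and 0.595 in the double mutant. All 15 genes of highest wild-type SD were above the median SD of the group in each of the 3 genotypes. Meg3 had an SD of 1.57 in the wild type and of 1.41, 0.96 and 0.76 in the others in that order, and Etnppl had 1.76 beside 1.88, 1.28 and 1.15. Apoe had 1.03 beside 0.64, 0.66 and 0.25, and Sox9 had 0.70 beside 0.29, 0.44 and 0.20. Slc1a2 stayed low throughout, with 0.18 beside 0.16, 0.23 and 0.27.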

How the data were processed

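Nuclear RNA was measured by RNA-seq in SOX9+NEUN- nuclei, and the 4 wild-type libraries of 19 are described. The authors deposited TPM values per gene. Per the submitters' processing notes, the tools were bcl2fastq 2.20, STAR 2.5.3a, HOMER 4.10.4 and MultiQC 1.0 on build mm10, and per the labels' protocols ribosomal RNA was depleted with a kit. Whether exons or whole gene bodies were counted, and whether strand was used, was not stated in any label or header, so overlapping and antisense genes may share reads.

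Levels, ranks and shares use the TPM as deposited. Spread uses TPM divided by a median-of-ratios factor per library (1.031, 1.033, 0.995 and 0.959) and is the SD of log2(scaled TPM + 1), with a pseudocount of 1. There is a single group, so no test was made and no p-value is given. Pairs of libraries correlated at 0.935 or less, so no library was treated as a copy of another. Every value column was mapped to a sample, and depth is unknown. The code for spread was tested on simulated data.

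The members and the 33 gene lists were chosen with earlier results of these data known. Genes named were the 20 highest by mean, the 10 highest small and structural RNA names, Rn45s included, up to 6 per list, the 15 of highest and 15 of lowest SD at a mean of 10 TPM or more, and 3 on each side of the threshold. Other genes named, and the comparisons with gene length and with microRNA host genes, were chosen after values were seen. A few genes are not reported here. Gene positions are from GENCODE vM21 and microRNA sequences from RefSeq GRCm38.p6. Python 3.11.15, numpy 2.4.6, pandas 2.3.3 and matplotlib 3.10.9 were used. The alternatives tried were other pseudocounts, no scaling, quantile normalization, factors over all 19 libraries, removal of Rn45s or of all small and structural RNA names, a threshold of 5 TPM, of 1 TPM in each library or none, and leaving out each library.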

Additional observations from a re-analysis of the deposited data

Results flagged for a closer look

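Among 302 genes and 32 list sums examined, 18 had 1 library apart from the other 3. Its gap to the nearest library, as a share of the whole range, passed Dixon's 95% critical value for 4 samples. Chance alone picks about 1 in 20 such groups, and 433 of the 9885 members at 10 TPM or more (4.38%) met the same condition. Values below are the gap as a share of the range, with the scaled TPM of the library that stood apart. They do not give the size of the range, which can be very small. Pdap1 and Trim26 are among the 15 genes of lowest SD, at 0.013 and 0.014 on the log2 scale.

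Replicate 4 was low for Id3 (0.943, at 226), Slc38a3 (0.843, at 279), Pygb (0.910, at 111), Btg2 (0.868, at 18.8), Dbp (0.836, at 97.0002), Trim26 (0.849, at 24.7) and Chrdl1 (0.870, at 13.6). It was high for Slc4a4 (0.920, at 148) and for Rnu11, a minor spliceosome RNA (1, at 5.75, with 0 in the other libraries). Replicate 2 was low for the oligodendrocyte genes Cnp (0.862, at 44.3) and Mag (0.835, at 18.9), for Gabbr1 (0.846, at 244) and for Slc25a18 (0.945, at 132). Replicate 1 was low for Grm3 (0.922, at 136), Pdap1 (0.926, at 15.5) and Arntl (0.885, at 24.5). Replicate 1 was high for the sum of the glycolysis, glycogen and lactate list (0.843, at 2953) and of the fatty acid list (0.954, at 2694). Of the 433 members, replicate 4 stood apart in 160, replicate 1 in 120, replicate 3 in 100 and replicate 2 in 53.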

How the results depend on the processing

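The median SD of log2(scaled TPM + 1) was 0.23 and ranged from 0.19 (without replicate 4) to 0.23 (without replicate 2) when each library was left out in turn. With a threshold of 5 TPM it was 0.19, and 1993 members ranged more than 2-fold in place of 3602, over 12102 members. The 100 highest genes held 48.5% of the listed TPM. They held 27.2% with Rn45s left out and the rest rescaled, and 24.7% with small and structural RNA names left out, a class that holds Rn45s too. Leaving out each library gave 15060 to 15236 members, 2446 to 2916 members over 2-fold and 47.2% to 49.9% for the 100 highest genes. TPM as deposited, quantile normalization, factors over all 19 libraries and pseudocounts of 0.1 and 0.5 gave a median SD between 0.23 and 0.25. The 15 genes of lowest SD, at 0.014 or less, had up to 0.025 with a threshold of 5 TPM and 0.061 for TPM as deposited. Of single-gene spreads recomputed under the alternatives, 80 moved by more than 1.5 times and 310 did not. No paired analysis was possible because a single group was described and no test was made. Depth is unknown, so counting error cannot be separated from the spread between animals, and small RNA names and members under 5 TPM are the least certain.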
